A study of Mus musculus with 28 samples.

Results

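SSEA1+ cells sorted on day 6 of reprogramming were compared with SSEA1+ cells sorted on day 3. The comparison uses the 4 arrays whose titles name these cells, 2 of day 6 and 2 of day 3, each pair made up of an array called M2 and an array called M3. They are 4 of the 24 arrays of the larger expression table and of the 28 arrays of the series, which follows mouse fibroblasts on their way to induced pluripotent stem (iPS) cells. All cells came from mouse embryonic fibroblasts (MEFs) of C57BL6/129 embryos that carry an OKSM cassette (Oct4, Klf4, Sox2 and c-Myc) and the Rosa26-M2rtTA allele, which switches the cassette on when doxycycline is given. Day 6 and day 3 cells thus share the cassette, the activator allele, doxycycline and embryonic stem cell medium with serum and LIF, and differ in the time since induction. The labels describe embryos with 1 copy and embryos with 2 copies of both alleles, without saying which an array came from. Both groups are labelled SSEA1-positive, Thy1-negative and GFP-negative.

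Other arrays serve for comparison. Thy1+ cells and Thy1- cells (labelled negative for both surface markers) of day 6 and day 3 have 2 arrays each. MEFs have 2 arrays, SSEA1+ cells of day 9 and of day 12 and GFP+ cells of day 12 have 1 array each, and iPS cells have 3 arrays. A separate table holds day 6 SSEA1+ cells split into EpCAM+ and EpCAM- cells, 2 arrays each. Nothing in the labels says that arrays of 1 group came from separate embryos or cultures, so the p-values rest on a spread between arrays that may be technical only.

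SSEA1 is a carbohydrate on the cell surface that fibroblasts lack and pluripotent cells carry. Thy1 is a surface protein of fibroblasts. During factor-driven reprogramming most cells first lose Thy1, a small share of those then gain SSEA1, and only late and in few of these does the cell's own pluripotency network switch on. Fibroblast genes fall and epithelial genes come on in the first days, and dividing faster is among the earliest changes.

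Thy1, one of the sorting genes, was lower than in MEFs and was not lost. It read 9.57 and 9.45 in day 6 SSEA1+ cells and 9.35 and 9.27 in day 3 SSEA1+ cells, against 11.79 and 11.80 in MEFs and between 6.10 and 6.87 in iPS cells (log2 signal of single arrays, as are all levels below unless called a mean). Fut9, a fucosyltransferase that builds the SSEA1 carbohydrate, read 6.20 and 5.77 on day 6 and 5.25 and 5.41 on day 3. The 4 SSEA1+ arrays were thus all above the Thy1- cells of the same days, which read between 3.54 and 3.72 for Fut9. The difference between day 6 and day 3 SSEA1+ cells in Fut9 did not pass the test (log2 difference 0.65, adjusted p = 0.18).

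The 4 arrays were close in signs of RNA quality. The 3' to 5' difference of the Actb control probe sets, a sign of RNA breakdown, was 0.776 and 0.803 on day 6 and 0.793 and 0.684 on day 3 (log2). That of Gapdh was 0.836 and 0.895 on day 6 and 0.730 and 0.796 on day 3, so it was slightly higher on both day 6 arrays, and its part in the results was not tested. None of the 19 macrophage and leukocyte markers, 13 endothelial markers, 7 erythroid markers or 20 muscle markers measured was called in either direction. Over all genes tested 1.45% were called higher and 0.356% lower. The mean of the macrophage list was 4.66 and 4.79 on day 6 and 4.64 and 4.71 on day 3, so that the days overlap, as they do for the endothelial list at 5.46 and 5.57 on day 6 and 5.46 and 5.55 on day 3. One array stood apart among those used for comparison, day 6 Thy1+ M2, with an Actb difference of 1.487 and a Gapdh difference of 1.78.

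Between day 3 and day 6 the SSEA1+ cells changed in few genes, and most of those went up. Of 11807 genes tested, 171 were higher on day 6 (1.45%) and 42 were lower (0.356%), where a gene was called at an adjusted p under 0.05 in limma and at least 2-fold. The median of all genes was -0.02 (log2 difference). Of the 213 called genes, 25 of the higher and 2 of the lower ones changed over 4-fold, and 111 changed between 2-fold and 2.5-fold. In all 213 both day 6 arrays lay on the same side of both day 3 arrays, as they did in 52.5% of all genes tested. Leaving out the day 3 M2 array brought the calls to 136, the lowest of the 4 such fits. In bulk samples fewer cells that hold a transcript and less transcript per cell cannot be told apart.

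The 15 genes of largest increase had unlike roles. Tac2, which encodes the tachykinin neurokinin B, read 11.21 and 11.36 on day 6 and 6.47 and 6.65 on day 3. That is 26.4-fold (log2 difference 4.72 ± 0.26 SE, adjusted p = 5.48e-07). Egfl6, a secreted protein with EGF-like repeats, read 6.94 and 6.43 on day 6 and 2.98 and 3.30 on day 3, a log2 difference of 3.55 ± 0.22 SE. The arrays of the 2 days lay far apart in both genes, with a gap many times that between arrays of the same day.

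Tfap2c, a transcription factor of trophoblast, early germ cells and the early embryo, read 10.27 and 10.04 on day 6 and 6.94 and 6.86 on day 3. Its log2 difference was 3.25 ± 0.22 SE (adjusted p = 2.07e-06). It was the only one of 16 trophoblast markers called, and the median of that list was -0.04, against -0.02 for all genes. Over all genes 1.45% were called higher, so 1 call among 16 says little about the list. Dner, a Notch ligand known from neurons, rose by 3.02 and Cldn11, a tight junction claudin, by 2.55 (log2). Rab3b, a small GTPase of regulated secretion, read 8.23 and 8.61 on day 6 and 5.25 and 5.59 on day 3, a log2 difference of 3.00 ± 0.24 SE. Lrmp rose by 2.91, Itih5, a secreted protein that binds hyaluronan, by 2.69, Prkcb, a protein kinase C, by 2.54, Pkp1, a plakophilin of desmosomes, by 2.39, and Slc12a3, a sodium-chloride cotransporter, by 2.37 (log2).

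The largest decreases were smaller. Nefl, the light chain of neurofilaments, read 6.15 and 5.72 on day 6 and 8.34 and 8.45 on day 3, which is 5.51-fold lower on day 6 (log2 difference -2.46 ± 0.32 SE, adjusted p = 5.24e-04). Cxcl5, a chemokine that attracts neutrophils, read 6.20 and 6.23 on day 6 and 7.89 and 8.65 on day 3, with a log2 difference of -2.06 ± 0.40 SE. The 2 day 3 arrays were further apart in Cxcl5 than in Nefl. The days overlapped in neither gene, nor in any other called gene. Also lower on day 6 were Car13, a carbonic anhydrase (-1.98), Mgst3, a glutathione transferase of membranes (-1.75), Stac2 (-1.62), Epha3, an ephrin receptor (-1.61), Fgf13 (-1.52), Myof, a protein of membrane repair (-1.49), Tes, a focal adhesion protein (-1.46), Cav1, the coat protein of caveolae (-1.45), Ada, adenosine deaminase (-1.43), and Ptx3, a secreted pentraxin (-1.37, all log2). Epha3 differed between the 2 day 6 arrays by more than most, with 4.60 and 3.59 on day 6 against 5.52 and 5.89 on day 3. Dimmer probe sets of some of these genes showed little difference, at -0.04 and -0.09 for Epha3, -0.13 for Fgf13 and -0.10 for Myof, so these calls rest on 1 probe set each.

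**Figure D1:**
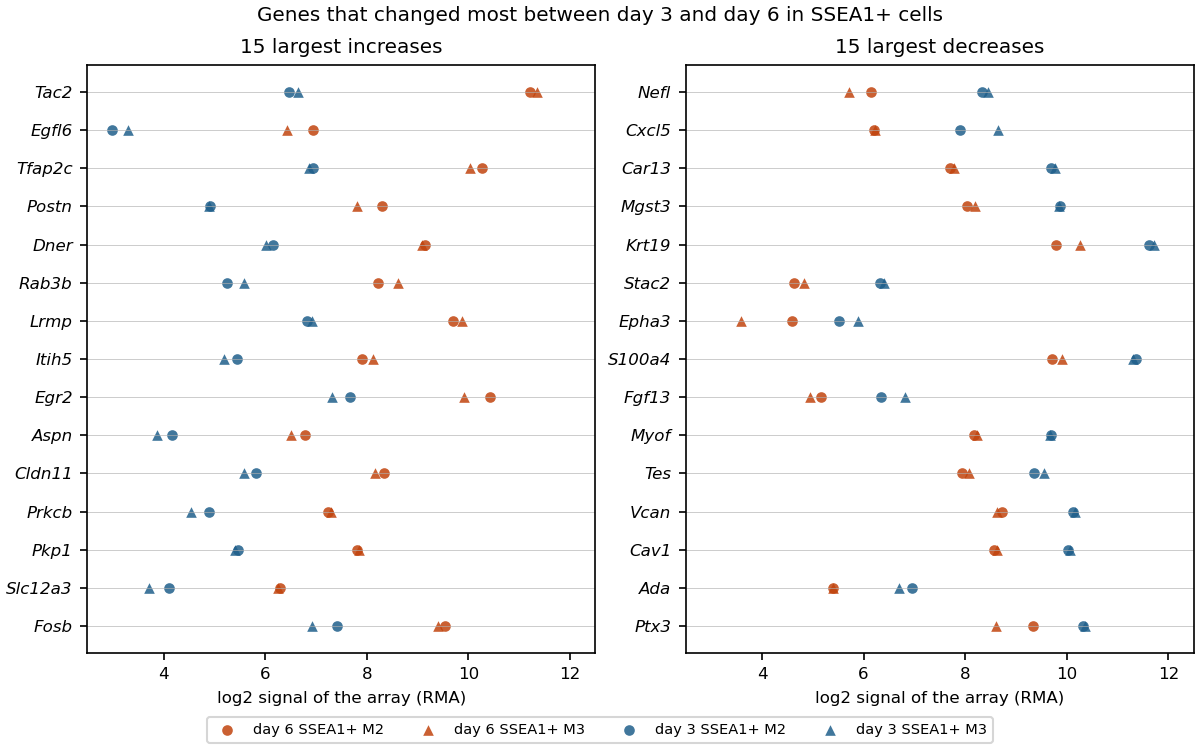
Log2 signal on the 2 day 6 arrays (orange) and the 2 day 3 arrays (blue) of SSEA1+ cells, for the 15 genes of largest increase (left) and of largest decrease (right) among those called, circles for M2 and triangles for M3. Tac2 has the widest gap, at 11.21 and 11.36 on day 6 against 6.47 and 6.65 on day 3. The 2 colours do not overlap in any of the 30 genes, which was a condition for naming them. The arrays overlapped in no called gene, and did not overlap in 52.5% of all genes tested.

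The genes that rose did not all go the same way before and after this interval. Differences of the other stages from these cells would share the day 6 or day 3 arrays, so the other stages are given as levels only. Tac2 read a mean of 3.53 in MEFs, 6.56 on day 3, 11.29 on day 6, 11.65 on day 9 and 11.87 on day 12 in SSEA1+ cells, then 8.70 in GFP+ cells of day 12 and 5.23 in iPS cells. Its level was high from day 6 to day 12 and lower at both ends of the course. From day 3 to day 6 Tac2 also rose in Thy1- cells, by 4.79, and in Thy1+ cells, by 3.83 (log2). In Thy1- cells it read 11.43 on day 9 and 11.47 on day 12. Tfap2c kept its level: it read 10.88 on day 9, 11.07 on day 12 and 10.96 in iPS cells. Fbxo15, an early target of the pluripotency factors, did the same, with 9.96 on day 9, 10.00 on day 12 and 10.62 in iPS cells after a mean of 3.66 in MEFs.

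Another course went down, up and down again. Postn, the matrix protein periostin, read a mean of 12.68 in MEFs, then 4.91 and 4.89 on the 2 day 3 arrays and 8.30 and 7.81 on the 2 day 6 arrays, and 6.81 on day 9 and 5.93 on day 12. Its rise from day 3 to day 6 was 3.15 ± 0.44 SE (log2, adjusted p = 8.07e-04) and left it far below MEFs. Over the 171 genes called higher, the median level was 6.41 and 6.27 on the MEF arrays, 6.69 and 6.59 on day 3, 8.18 and 8.11 on day 6, 8.30 on day 9, 8.35 on day 12, 7.0 in GFP+ cells of day 12 and between 6.54 and 6.69 in iPS cells. As a group these genes were high in SSEA1+ cells from day 6 to day 12, and nearer the MEF and day 3 level in GFP+ cells of day 12 and in iPS cells. They were about as high in the other fractions of these days. Their median in Thy1- cells was 8.04 and 8.27 on day 6 and 8.65 on day 12. In Thy1+ cells it was 8.23 and 8.11 on day 6 and 8.39 on day 12. Over the 42 genes called lower, the median was 8.13 and 8.10 in MEFs, 8.56 and 8.55 on day 3, 7.37 and 7.27 on day 6, 6.99 on day 9, 6.96 on day 12, 6.49 in GFP+ cells and between 7.30 and 7.69 in iPS cells.

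**Figure D2:**
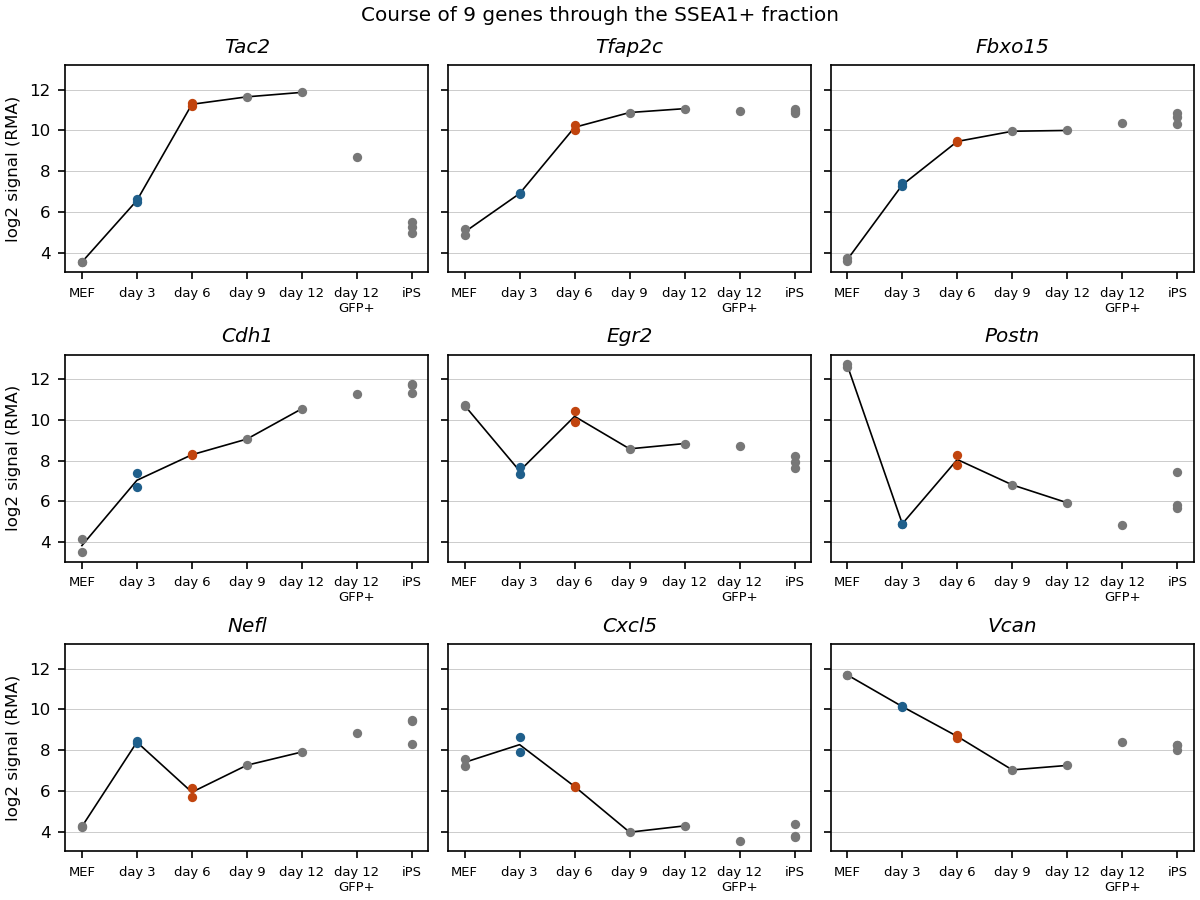
Log2 signal of 9 genes on each array of MEFs, SSEA1+ cells of days 3, 6, 9 and 12, GFP+ cells of day 12 and iPS cells, with a line through the group means up to day 12. Tac2 is high from day 6 to day 12 (mean 3.53 in MEFs and 5.23 in iPS cells), Tfap2c and Fbxo15 stay high in iPS cells, Postn and Egr2 dip on day 3, and Nefl dips on day 6 at 6.15 and 5.72.

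Of 20 immediate early genes measured, 8 were called higher and none lower, against 1.45% and 0.356% of all genes tested. These genes encode mostly transcription factors whose transcripts come on within minutes of a growth factor or stress signal, with no new protein needed, and serum response factor (SRF) and CREB are among the factors that switch them on. All 20 differences were above 0, some by very little. The list's median log2 difference was 0.88, against -0.02 for all genes. The mean of the list was 9.96 and 9.80 on day 6 and 8.99 and 8.92 on day 3, and the MEF arrays read 9.96 and 9.81. Day 6 lay within the MEF range or just below it, and the day 3 arrays were the lowest of the SSEA1+ arrays, with 9.30 on day 9 and 9.35 on day 12.

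Egr2, a zinc finger factor, read 10.43 and 9.92 on day 6 and 7.67 and 7.32 on day 3 (log2 difference 2.68 ± 0.37 SE, adjusted p = 7.10e-04). Fosb, a partner of Jun in AP-1, read 9.54 and 9.40 on day 6 and 7.42 and 6.92 on day 3 (2.30 ± 0.41 SE, adjusted p = 0.00483). In both genes the day 6 arrays lay far above the day 3 arrays. Btg2, an antiproliferative early gene, rose by 1.60, Ier3 by 1.36, Egr1, the most studied of the family, by 1.26, Ier2 by 1.20, Nr4a1, an orphan nuclear receptor, by 1.20, and Ccn2, the matricellular growth factor CTGF, by 1.09 (log2). Fos itself read 12.42 and 12.25 on day 6 and 11.60 and 11.52 on day 3. It passed the p threshold and fell short of 2-fold (log2 difference 0.78, adjusted p = 0.0234), as did Junb (0.72), Maff (0.82) and Srf (0.56). Jun (0.94, adjusted p = 0.21) and Atf3 (1.03, adjusted p = 0.171) did not pass, and Fosl1, Egr3 and Myc lay between 0.01 and 0.04. Without day 6 M2 or without day 3 M3 3 members were called in place of 8, and without day 3 M2 4 were, so the count depends on each of these arrays.

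Promoters are shown for the members among these 8 whose 250 bases before a transcript start hold a motif of SRF or CREB, since these factors are known to act on such genes. The motifs searched on both strands were the CArG box of SRF (CC, 6 bases of A or T, GG), the CRE of CREB (TGACGTCA), AP-1 (TGANTCA), the TATA box (TATAAA) and E2F (TTTCCCGC or TTTGGCGC), and no overlap between them was removed. RefSeq entries of build GRCm38.p6 matched 125 of the 171 higher and 30 of the 42 lower genes, and 5 of the 8 immediate early genes called. Egr2 holds a CArG box 72 to 63 bases before a start (chr10:67537454-67537543, + strand) and Btg2 a CRE 166 to 159 bases before its start (chr1:134079274-134079361, - strand). The capitals mark the motif and 40 bases stand on each side.
Egr2: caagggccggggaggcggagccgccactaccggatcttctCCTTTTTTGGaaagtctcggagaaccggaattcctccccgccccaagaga
Btg2: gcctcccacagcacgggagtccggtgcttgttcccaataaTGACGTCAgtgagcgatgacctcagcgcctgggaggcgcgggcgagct
A CArG box was found in 7 of the 125 higher genes (5.6%), in 0 of the 30 lower genes, in 1.68% of the 9430 genes tested that have an entry and in 1.62% of all 27025 genes of the table. A CRE was found in 6 of the 125 (4.8%), in 0 of the 30, in 2.5% of the genes tested and in 1.77% of the table. AP-1 was found in 5.6% of the higher and 6.67% of the lower genes, against 7.09% of the genes tested and 7.82% of the table. The TATA box was found in 16.8% of the higher and 20.0% of the lower genes, against 11.1% of the genes tested and 14.3% of the table. E2F was found in 0.8% of the higher and 6.67% of the lower genes, against 2.41% of the genes tested and 1.51% of the table. These are matches of letters and not sites shown to be bound, and a match before any start of a gene was counted.

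Genes that report on the MAP kinase pathway moved the same way in part. Dusp6, the phosphatase that switches ERK off and is itself switched on by ERK, read 9.52 and 9.30 on day 6 and 7.79 and 7.66 on day 3 (log2 difference 1.69 ± 0.21 SE, adjusted p = 4.20e-04). Spry1 (1.25) and Spry4 (1.17), feedback inhibitors of receptor tyrosine kinases, were also called higher, and a dimmer probe set of Spry4 read 0.14. The other 13 of 16 members measured were not called, and Dusp1 (0.19), Ccnd1 (0.00) and Ereg (-0.15) were among them. The median of the list was 0.31, against -0.02 for all genes, of which 1.45% were called higher. Dusp6 read a mean of 9.67 in MEFs and 10.08 in iPS cells, against a mean of 7.72 on day 3.

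Matrix genes rose in part. Of 31 matrix proteins and matrix enzymes measured, 8 were called higher and 1 lower, with a list median of 0.23. For all genes tested the shares were 1.45% and 0.356% and the median was -0.02. Besides Postn, Aspn read 6.79 and 6.51 on day 6 and 4.16 and 3.87 on day 3 (log2 difference 2.63 ± 0.22 SE), and Fmod read 10.36 and 10.53 on day 6 and 8.40 and 8.44 on day 3 (2.03 ± 0.18 SE). Both are small leucine-rich proteoglycans that bind collagen, and the days did not overlap in either, as in every called gene. The others were Eln, elastin (1.69), Mfap5, a microfibril protein (1.49), Ogn (1.40) and Bgn (1.02), again leucine-rich proteoglycans, and Mgp, matrix Gla protein (1.12). A dimmer probe set of Eln read 0.10 (adjusted p = 0.961), so its call rests on 1 probe set. The member called lower was Vcan, the large proteoglycan versican, at 8.73 and 8.62 on day 6 and 10.12 and 10.16 on day 3 (-1.46 ± 0.20 SE).

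None of 17 collagens was called, 12 of the 17 were above 0, and their median was 0.14. Over all genes 1.45% were called higher and 0.356% lower, so no call among 17 genes does not set the collagens apart. Col1a1 read 11.10 and 11.06 on day 6 and 10.53 and 10.51 on day 3 (log2 difference 0.56, adjusted p = 0.487), and Col3a1 went the other way at -0.40 (adjusted p = 0.729). These p-values use a spread shared by all groups of arrays, and not that of these 4 arrays alone. When any 1 of the 4 arrays was omitted, 4 or 5 matrix genes were called higher in place of 8. Of 14 contractile genes only Mylk, the myosin light chain kinase, was called (1.90 ± 0.27 SE, with other probe sets at 1.44 and -0.28), while Acta2, smooth muscle actin, differed by 0.11. Of the matrix genes called, Fmod alone had a lower mean in MEFs (9.76) than on day 6 (10.44). The mean of the matrix list was 8.95 and 8.90 on day 6, 8.39 and 8.43 on day 3 and 10.84 and 10.85 in MEFs.

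Among mesenchymal factors and surface markers 1 of 22 was called lower and none higher, with a list median of -0.02. The shares over all genes were 0.356% and 1.45%, with a median of -0.02. S100a4, a calcium-binding protein of fibroblasts, read 9.70 and 9.90 on day 6 and 11.37 and 11.30 on day 3 (log2 difference -1.54 ± 0.29 SE, adjusted p = 0.00793). Snai2, a repressor of epithelial genes, was lower by less than the 2-fold set (-0.97, adjusted p = 0.0337). Twist1 (0.04), Zeb1 (0.20) and Vim (-0.07) differed little. Bmp4, a ligand of the TGF-beta family, was the only one of 20 TGF-beta signalling genes called (1.06), and that list's median was 0.11. Single calls in lists this small are not read as a result about the list.

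Epithelial genes rose at a few members. Cdh1, the adhesion protein E-cadherin, read 8.32 and 8.26 on day 6 and 7.38 and 6.69 on day 3 (log2 difference 1.26 ± 0.24 SE, adjusted p = 0.00858). Epcam, an adhesion molecule of epithelia and pluripotent cells, read 7.29 and 7.48 on day 6 and 6.11 and 5.92 on day 3 (1.37 ± 0.25 SE, adjusted p = 0.00529). Spint1 (2.27) and Spint2 (1.41), membrane inhibitors of serine proteases, completed the 4 of 30 called higher. Over all genes tested 1.45% were called higher and 0.356% lower, with a median of -0.02. Krt19, a keratin, was called lower, at 9.79 and 10.27 on day 6 and 11.61 and 11.71 on day 3 (-1.63 ± 0.36 SE). The junction genes Ocln (0.30), Cldn3 (0.35), Cldn4 (0.14) and Dsp (0.56) and the regulators Esrp1 (0.16) and Grhl2 (0.64) did not pass. The list's median was 0.16, and without day 6 M3 or without day 3 M3 2 members were called higher in place of 4.

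Pluripotency genes mostly stayed at low levels. Of 25 measured, 4 were called higher and none lower, with a median of 0.11. The shares over all genes were 1.45% and 0.356%, with a median of -0.02. Fbxo15 read 9.44 and 9.48 on day 6 and 7.40 and 7.25 on day 3 (log2 difference 2.13 ± 0.35 SE, adjusted p = 0.00265). Nr0b1, the nuclear receptor DAX1, read 6.93 and 6.77 on day 6 and 5.42 and 5.20 on day 3 (1.54 ± 0.14 SE, adjusted p = 3.92e-05), and its mean in iPS cells was 11.11. Tfcp2l1, a naive-state factor, rose by 1.28 and Nodal, a TGF-beta family ligand, by 1.18 (log2). A dimmer probe set of Nodal read 0.165 (adjusted p = 0.909). Nodal and Nr0b1 were still far below their iPS levels on day 6, and Fbxo15 was closer to its own, a mean of 10.62. Pou5f1 read 5.22 and 5.62 on day 6 and 5.76 and 5.60 on day 3, against a mean of 11.86 in iPS cells. Whether its probe set detects the cassette's transcript is not given in the sources used here.

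One day 3 array carried more of these transcripts than the other. Dppa5a, a marker of embryonic stem cells, read 5.46 and 5.29 on the day 6 arrays, and 8.22 on day 3 M2 against 5.53 on day 3 M3. Sox2 read 3.35 and 3.38 on day 6, 4.96 on day 3 M2 and 3.14 on day 3 M3, and Nanog read 6.43 and 6.06 on day 6, 5.97 on day 3 M2 and 4.74 on day 3 M3. Over all genes tested, 7 differed by more than 1 log2 unit between the 2 day 3 arrays, all higher in M2. They were Dppa5a, Sox2, Dppa2, Sall4, Nanog, Esrrb and, chosen for naming after its value was seen, Eras, and each has a mean over 10 in iPS cells. Their levels in day 3 M2 were far below those means. Between the day 6 arrays 7 genes also differed that much, and none of these is on the pluripotency list.

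Without the day 3 M2 array the list's median was 0.22 in place of 0.11, and 19 members in place of 13 were above 0. Sall4 then differed by 1.49 (adjusted p = 0.173) in place of 0.76 (adjusted p = 0.561), and Sox2 by 0.22 in place of -0.69. Nanog did not pass in either fit, with an adjusted p of 0.124 without that array and 0.356 with it. Fbxo15, Nodal and Nr0b1 were called without that array too, and Tfcp2l1 was not (adjusted p = 0.154). What set the M2 array apart was not tested.

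**Figure D3:**
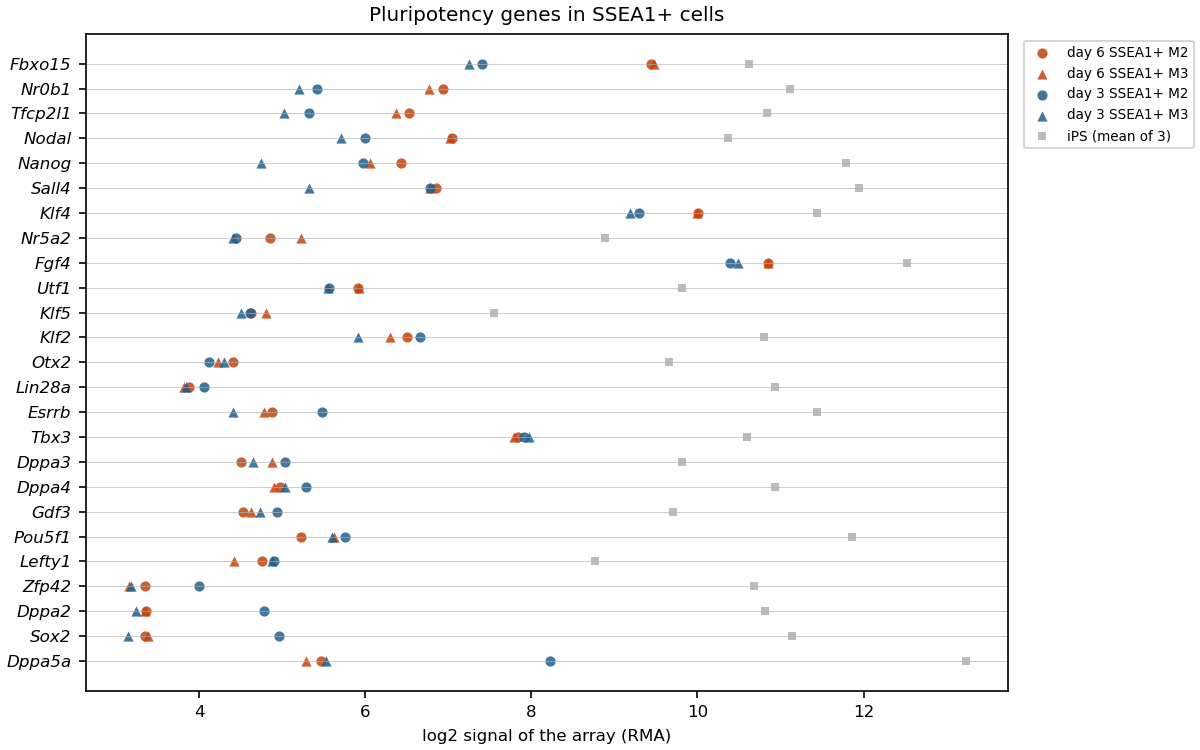
Log2 signal of 25 pluripotency genes on the 2 day 6 arrays (orange) and the 2 day 3 arrays (blue) of SSEA1+ cells, circles for M2 and triangles for M3, with the mean of the 3 iPS arrays as grey squares. Day 3 M2 stands right of day 3 M3 in Dppa5a (8.22 against 5.53), Sox2, Dppa2, Sall4, Nanog and Esrrb, and the top 4 genes are those called higher on day 6.

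Several imprinted genes rose. Imprinted genes are transcribed from 1 parental copy, and many of them act on growth in the embryo. Of 19 measured, 4 were called higher and none lower, with a median of 0.08. The shares over all genes were 1.45% and 0.356%, with a median of -0.02, so the list as a whole moved little. Igf2, a fetal growth factor, read 11.49 and 11.70 on day 6 and 9.72 and 9.70 on day 3 (log2 difference 1.88 ± 0.47 SE, adjusted p = 0.0391). Meg3, a long noncoding RNA, read 10.84 and 11.22 on day 6 and 9.64 and 9.49 on day 3 (1.46 ± 0.31 SE, adjusted p = 0.0161). Cdkn1c, the cell cycle inhibitor p57, rose by 1.35 and Peg3, a zinc finger gene, by 1.19 (log2). Rian, a noncoding RNA of the same imprinted cluster as Meg3, differed by 0.47 (adjusted p = 0.449), and Dlk1 of that cluster by 1.45 (adjusted p = 0.0952). When single arrays were left out, 1 or 2 members were called in place of 4.

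The promoters of 3 of these 4 genes hold a CArG box or a CRE, which is why they are shown. Of the genes tested that have an entry, 1.68% hold a CArG box and 2.5% a CRE. A match before any start of a gene counts, so genes with several starts have more chances of one. Igf2 (chr7:142661377-142661466, - strand) holds a CArG box 155 to 146 bases before a start, Meg3 (chr12:109545264-109545353, + strand) a CArG box 94 to 85 bases before a start and, before another start (chr12:109540899-109540986, + strand), a CRE 57 to 50 bases ahead of it, and Peg3 (chr7:6730550-6730637, - strand) a CRE 178 to 171 bases before a start, all in GRCm38.p6 from RefSeq with the motif in capitals.
Igf2: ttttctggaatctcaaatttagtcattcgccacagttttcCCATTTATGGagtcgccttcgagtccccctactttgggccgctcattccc
Meg3, CArG box: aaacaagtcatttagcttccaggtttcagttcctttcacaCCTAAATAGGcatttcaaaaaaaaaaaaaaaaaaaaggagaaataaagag
Meg3, CRE: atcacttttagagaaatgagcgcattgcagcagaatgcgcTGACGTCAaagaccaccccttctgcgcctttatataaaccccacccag
Peg3: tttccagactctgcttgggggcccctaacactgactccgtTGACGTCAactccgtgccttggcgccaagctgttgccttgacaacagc
Genes can have several starts, and an array probe set does not say which start a transcript came from.

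Cell cycle genes had slightly lower values on day 6. All 29 mitotic genes measured had a difference below 0, with a median of -0.44 and a range from -0.87 to -0.14. None was called, and none was lower by as much as 2-fold. In limma 21 of the 29 had an unadjusted p under 0.05. Some members missed the adjusted threshold as well, such as Mki67 (adjusted p = 0.888) and Ttk (adjusted p = 0.704). Aurka, a kinase of the spindle poles, read 9.03 and 8.91 on day 6 and 9.99 and 9.69 on day 3 (log2 difference -0.87, adjusted p = 0.00557). The mean of the list was 9.55 and 9.47 on day 6, 10.01 and 9.90 on day 3, and 7.97 and 7.78 in MEFs. Day 6 SSEA1+ cells thus kept mitotic transcripts well above MEFs.

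DNA replication genes gave the same picture. Of 38 measured, 2 were called lower, against 0.356% of all genes, and 37 were below 0, with a median of -0.32. Cdc6, which loads the replicative helicase, read 6.94 and 6.67 on day 6 and 8.04 and 7.94 on day 3 (log2 difference -1.18 ± 0.18 SE, adjusted p = 0.00138). Ccne2, cyclin E2, read 7.48 and 7.16 on day 6 and 8.55 and 8.33 on day 3 (-1.12 ± 0.27 SE, adjusted p = 0.0323). The days did not overlap in either gene, as in every called gene. The median of all genes was -0.02, so both lists lay below it.

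In metabolism and inflammation the calls were single genes. Over all genes tested 1.45% were called higher and 0.356% lower, with a median of -0.02. Few or no calls in lists this small are thus not read as results about the lists. Eno2, an enolase, read 9.82 and 10.05 on day 6 and 7.92 on both day 3 arrays (log2 difference 2.02 ± 0.27 SE), and Aldoc, an aldolase, rose by 1.20. A dimmer probe set of Aldoc read 0.333 (adjusted p = 0.738). The other 19 of 21 glycolysis and hypoxia genes were not called, among them Ldha (-0.27) and Pkm (-0.24). Fdps, an enzyme of isoprenoid synthesis, was the only one of 13 cholesterol synthesis genes called, at -1.10. Of the 13, 12 were below 0 (median -0.30), against 6266 of all 11807 genes tested. Of 15 oxidative stress response genes Gstm1, a glutathione transferase, was called (1.04). Of 26 inflammatory genes Cxcl12, a chemokine of stromal cells, was called higher (1.86), and Cxcl5 and Ccl20 (-1.16) lower. A dimmer probe set of Cxcl12 read 0.763 (adjusted p = 0.246). Stmn2, a microtubule regulator of neurons, and Nefl were the 2 of 18 neural markers called, Stmn2 at 10.19 and 10.60 on day 6 and 11.46 and 11.64 on day 3. No member was called among 17 interferon, 18 p53 target, 15 amino acid response, 28 oxidative phosphorylation, 17 ribosome biogenesis, 29 chromatin regulator, 13 germline, 14 endodermal, 17 epidermal and 10 housekeeping genes.

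The other fractions of the same days were compared over the same days. In Thy1- cells 243 genes were higher on day 6 (2.06%) and 140 lower (1.19%), on arrays not used for the SSEA1+ comparison. Of the 171 genes higher in SSEA1+ cells, 136 were also called higher in Thy1- cells, which is 79.5% of the SSEA1+ calls and 56.0% of the Thy1- calls. Of the 42 lower genes 34 were shared, 81.0% of the SSEA1+ calls and 24.3% of the Thy1- calls. All 213 had a difference of the same sign in Thy1- cells. The test of the difference between the 2 changes called 0 genes (0.0%) in limma, with 345 at an unadjusted p under 0.05.

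Thy1+ cells changed in more genes. In them 538 genes were higher on day 6 (4.56%) and 539 lower (4.57%). They shared 102 of the 171 higher genes (59.6% of the SSEA1+ calls and 18.96% of the Thy1+ calls) and 30 of the 42 lower genes (71.4% and 5.57%). One gene called higher in SSEA1+ cells was called lower in Thy1+ cells, Bex2, named after its value was seen, at 1.06 in SSEA1+ cells. The change differed between SSEA1+ and Thy1+ cells in 220 genes, of which 162 were more positive (1.37%) and 58 more negative (0.491%) in SSEA1+ cells. The day 6 Thy1+ M2 array matters here. Without it the Thy1+ calls were 668 in place of 1077 and the genes that differed were 235. Without day 6 Thy1+ M3, which leaves that array alone, 2327 genes were called in Thy1+ cells and 1990 differed.

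**Figure D4:**
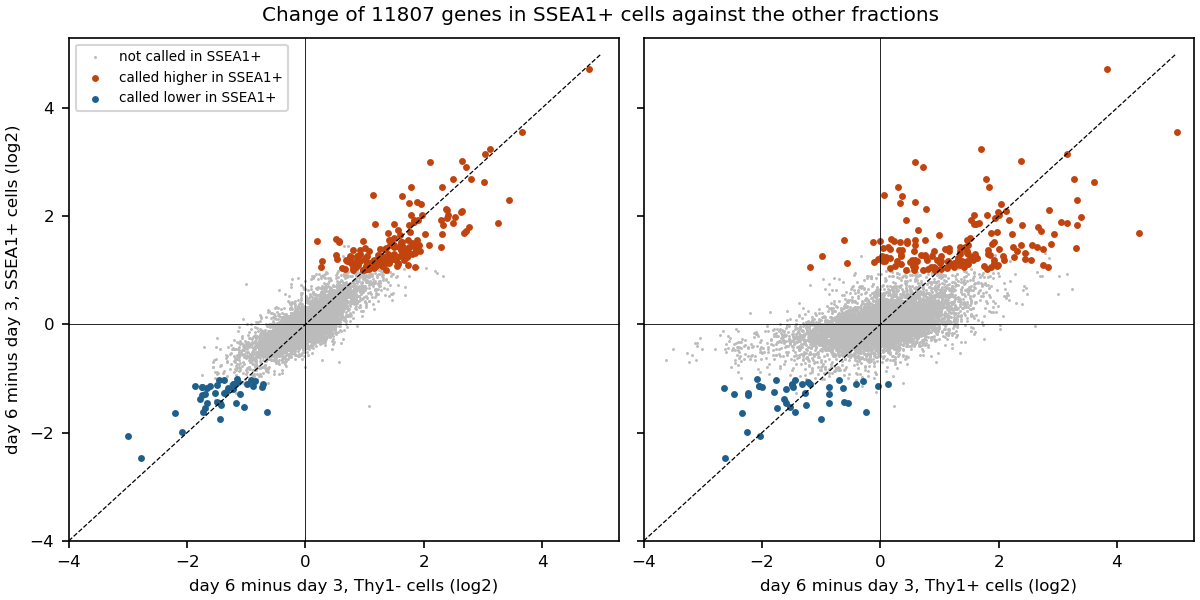
Log2 difference between day 6 and day 3 of 11807 genes in SSEA1+ cells (vertical axis) against the same difference in Thy1- cells (left) and Thy1+ cells (right), with genes called higher in SSEA1+ cells in orange, called lower in blue and others in grey, and a dashed line of equal change. Each called gene has the same sign in Thy1- as in SSEA1+ cells, and in Thy1+ cells they scatter further from the line, with 102 of 171 also called higher there.

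Genes of cell division led the difference from Thy1+ cells. Mki67, a marker of dividing cells, read 11.32 and 11.34 on day 6 and 11.66 and 11.50 on day 3 in SSEA1+ cells, while it fell by 3.04 in Thy1+ cells (difference 2.79 ± 0.42 SE, adjusted p = 0.00245). Pclaf, which binds the sliding clamp PCNA, had the largest difference, at 3.05 ± 0.32 SE (adjusted p = 1.40e-04). Cenpe, Ttk, Zwilch, Cep55, Aspm, Bub1, Shcbp1 and Ska1 made up the 10 largest. Of the 29 mitotic genes 26 were called in this test, and of the 38 replication genes 19, all more positive in SSEA1+ cells. The median change of the mitotic list was -0.44 in SSEA1+ cells, -1.09 in Thy1- cells and -2.39 in Thy1+ cells. Without the day 6 Thy1+ M2 array 27 mitotic and 17 replication genes were called.

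The mean of the mitotic list on each array shows this. It was 7.11 and 7.21 in Thy1+ cells on day 6 and 9.46 and 9.56 on day 3, so that day 6 Thy1+ cells lay below MEFs. In Thy1- cells it was 8.52 and 8.56 on day 6 and 9.61 and 9.64 on day 3. The SSEA1+ arrays, at 9.55 and 9.47 on day 6, were the highest of the 3 fractions of that day.

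In this test 2 of 30 epithelial genes (Cdh1 and Spint1) and 1 of 25 pluripotency genes (Nr0b1) were called, all more positive in SSEA1+ cells. Over all genes 1.37% were called in that direction. The median difference was 0.12 over the epithelial list and -0.15 over the pluripotency list, against -0.06 for all genes. Cdh1 changed by 1.26 in SSEA1+ cells and by -0.99 in Thy1+ cells (difference 2.25 ± 0.34 SE, adjusted p = 0.00246). Pkp1 changed by 2.39 in SSEA1+ cells and by 0.07 in Thy1+ cells (2.31 ± 0.22 SE, adjusted p = 9.43e-05), and Nr0b1 by 1.54 in SSEA1+ cells and by -0.01 in Thy1+ cells (1.55 ± 0.20 SE, adjusted p = 7.42e-04). Rab3b, Lrmp, Prkcb, Slc12a3, Spint1 and Tfap2c also passed the test in this direction. Going the other way, Eln changed by 1.69 in SSEA1+ cells and by 4.37 in Thy1+ cells (-2.68 ± 0.31 SE, adjusted p = 2.38e-04), and Mfap4, Aqp4, Rflnb, Igfbp5, Tlr4, Sorcs2, Prkg1, Fxyd1 and Sod3 followed it among the 10 most negative. None of the 20 immediate early genes was called in this test by limma, with 4 more negative in SSEA1+ cells at an unadjusted p under 0.05 and 15 of the 20 differences below 0 (lowest -1.35). Their median change was 0.88 in SSEA1+ cells, 1.16 in Thy1- cells and 1.22 in Thy1+ cells. In each of the 3 fractions the list's mean was lower on day 3 than on day 6.

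**Figure D5:**
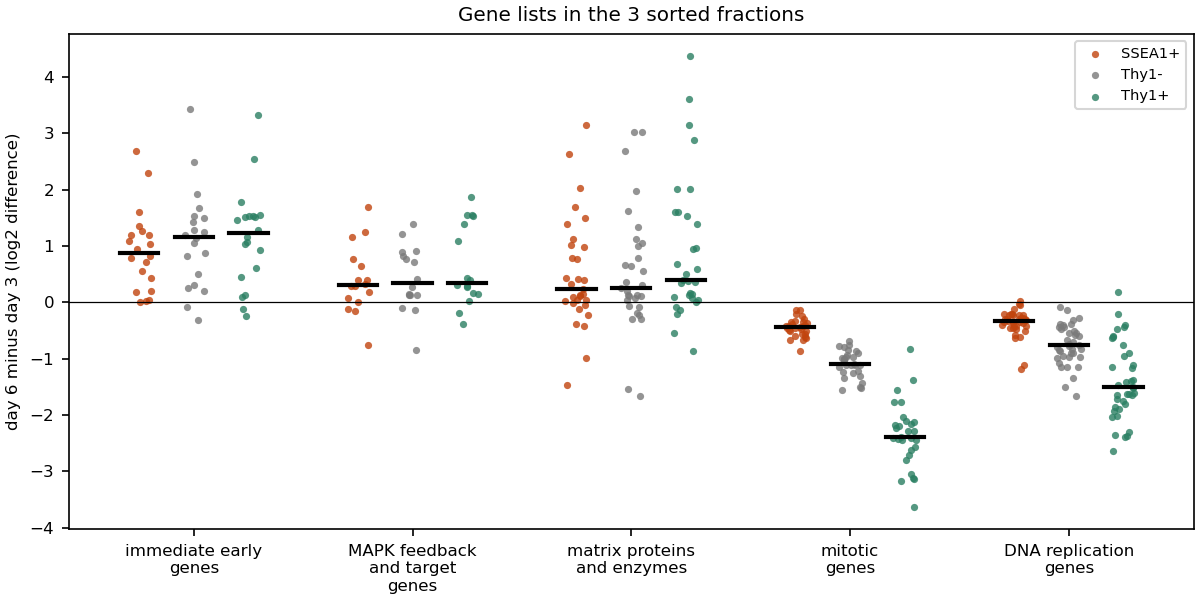
Log2 difference between day 6 and day 3 for each member of 5 gene lists in SSEA1+ cells (orange), Thy1- cells (grey) and Thy1+ cells (green), with a black bar at the list's median in each fraction. Immediate early genes lie mostly above 0 in all 3 fractions (medians 0.88, 1.16 and 1.22), and mitotic genes lie below 0 to an unequal extent (medians -0.44, -1.09 and -2.39).

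Splitting day 6 SSEA1+ cells by EpCAM, on other arrays, tells which of the genes that rose mark the EpCAM+ cells. In that split 60 genes were higher in EpCAM+ than in EpCAM- cells (0.484%) and 33 were lower (0.266%). Of the 169 genes higher on day 6 that this table measures, 9 were higher in EpCAM+ cells and 6 lower. Among those higher were Epcam itself (log2 difference 2.94), which the sort fixes, Nr0b1 (2.33), Cdh1 (1.69) and Peg3 (1.12). Among those lower were the matrix genes Fmod (-1.19), Mgp (-1.18) and Bgn (-1.13). The rest of the 9 and of the 6 are not named here. The median over the 169 genes was -0.05, against 0.02 for all genes. Tac2 (0.09), Egr2 (-0.41) and Postn (-0.13) did not pass the test in this split. Nefl, which was lower on day 6, was higher in EpCAM+ cells (2.02, adjusted p = 0.00116).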

How the data were processed

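The authors deposited log2 expression values of whole probe sets, normalized by RMA per the submitters' processing notes. RMA corrects background, makes the arrays' distributions equal and summarises probes, so a shift of all genes at once would not be seen, and low values are compressed. Array medians lay between 6.835 and 6.988, and no 2 arrays were identical. Of 22716 probe sets, 18003 have 1 gene symbol, 287 several and 4426 none, by GEO's platform annotation. Each gene was read from its brightest probe set on average, giving 11807 genes (12394 in the EpCAM table). Probe sets can be far from a gene's start or shared by isoforms, and levels are never compared between genes.

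The 24 arrays were fitted with 15 group means in limma 3.58.1 (R 4.3.3), which leaves 9 residual degrees of freedom and 4.68 prior ones, and the 4 EpCAM arrays were fitted alone. P-values were adjusted by Benjamini-Hochberg over all genes. SE is that of the log2 difference in this fit. The spread of a gene is shared by all groups, so day 6 Thy1+ cells enter it too. Their 2 arrays lay further apart, with a root mean square SD over genes of 0.464 (log2). That of SSEA1+ cells was 0.159 on day 6 and 0.129 on day 3. The SE of a gene can thus be larger than its SSEA1+ arrays alone would give. The fit was tested on simulated data. With 2 arrays a group, the number of arrays limits the precision. Genes named are the 15 of largest difference in each direction among called genes whose day 6 and day 3 arrays do not overlap. Named too are the 10 of largest difference in each direction for each test between fractions, and members of gene lists. The members and lists were chosen with earlier results of these data known. Alternatives were other normalizations, filters, probe set rules and variance priors, a replicate block, and leaving out arrays.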

Additional observations from a re-analysis of the deposited data

Results flagged for a closer look

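The change from day 3 to day 6 differed between SSEA1+ and Thy1+ cells in 220 genes, by limma's test of the difference itself with Benjamini-Hochberg adjustment. Among the genes named above, these had a larger change in SSEA1+ than in Thy1+ cells (difference of the 2 log2 changes): Rab3b by 2.40, Pkp1 by 2.31, Cdh1 by 2.25, Prkcb by 2.24, Lrmp by 2.19, Slc12a3 by 2.01, Spint1 by 1.69, Nr0b1 by 1.55 and Tfap2c by 1.54. Cdc6 also differed in this direction, at 1.46, since it fell less in SSEA1+ cells. A smaller increase in SSEA1+ cells was found for Eln, at -2.68, Bmp4, at -1.77, and Egfl6, at -1.47. All 13 genes also passed at adjusted p under 0.05 without the day 6 Thy1+ M2 array. Whether that array's RNA quality plays a part in the other genes was not tested. Outliers within groups could not be looked for in groups of 1 to 3 arrays.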

How the results depend on the processing

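Calls between day 6 and day 3 in SSEA1+ cells numbered 213, and 448 with no minimum fold. They numbered 136 to 148 when 1 array was left out, with the lone array of a day assumed to vary like the other groups, and 75 with the M2 arrays alone and 68 with the M3 arrays alone, of which 72 and 66 were among the 213. Calls in Thy1+ cells numbered 3119 with no minimum fold and 668 to 2327 with 1 array left out, and those in Thy1- cells 1078 and 284 to 374. The genes whose change differed between SSEA1+ and Thy1+ cells numbered 132 to 1990 with 1 array left out. The difference between SSEA1+ and Thy1- cells had 0 calls in every fit run. Quantile normalization gave 201 calls in SSEA1+ cells, subtraction of medians 206, no dim genes 202, averaging a gene's probe sets 171, a trended prior 212, the fit of the 4 arrays alone 241, and all probe sets counted singly 276. None of the 68 named or listed genes called in SSEA1+ cells changed direction in any of these fits. Of them 19 to 26 lost their call when 1 array was left out, 44 with M2 alone, 43 with M3 alone, 9 with averaged probe sets, and 0 to 4 in the other fits of the table. The labels do not say whether the M2 and M3 numbers pair the arrays. The correlation of M2 minus M3 between 2 groups, across genes, was 0.142 for day 3 and day 6 SSEA1+ cells. Over all pairs of groups it was -0.207 to 0.214. These values cannot show whether arrays of 1 number share an origin, since noise of single arrays lowers them. With the replicate block 215 genes were called in SSEA1+ cells, 208 of them among the 213, with 389 in Thy1- and 1023 in Thy1+ cells, and 211 genes differed between SSEA1+ and Thy1+ cells. Of 34 further probe sets of named genes, 33 had the same sign and 18 passed both thresholds.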

Other observations

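Genes of the circadian clock were looked at after their values had been seen, since several stood among the genes that rose. Of 15 measured, 4 were called higher on day 6 and 0 lower, against 1.45% and 0.356% of all genes. Above 0 were 14, with a median log2 difference of 0.64 against -0.02 for all genes. Per2, a repressor of the clock, read 7.34 and 6.73 in day 6 SSEA1+ cells and 5.15 and 5.18 in day 3 SSEA1+ cells (1.87 ± 0.28 SE, adjusted p = 0.00135). Npas2, a partner of Bmal1, rose by 1.27, Rora, a nuclear receptor of the clock, by 1.19, and Dbp, an output factor, by 1.08 (log2). Arntl, which encodes Bmal1, was the member below 0 (-0.45, adjusted p = 0.721). Per2 also rose in Thy1- cells, by 3.26, and in Thy1+ cells, by 1.67. The hours at which cells were sorted are not given in the sources used here.

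Among 4623 probe sets without a single gene symbol, 76 were called between day 6 and day 3 in SSEA1+ cells (1.64%), 53 higher and 23 lower. They are unnamed here.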
